A study of Homo sapiens with 13 samples.

Results

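The enzymes followed here make purine and pyrimidine nucleotides from small precursors. They are encoded by *PPAT*, *GART*, *PFAS*, *PAICS*, *ADSL*, *ATIC*, *IMPDH1*, *IMPDH2*, *GMPS* and *DHODH*, and they were chosen by symbol, as 10 of the 56831 genes listed for 2 small cell lung cancer (SCLC) lines. H82 is an established SCLC line of the SCLC-N subtype, which is marked by NEUROD1, and H146 is an established line of the SCLC-A subtype, both of wild-type genotype per the labels. RNA was sequenced from 3 untreated H82 libraries, 3 H82 libraries treated with FHD-286, 3 untreated H146 libraries and 4 H146 libraries treated with FHD-286. FHD-286 is an allosteric inhibitor of both SMARCA4 and SMARCA2, the ATPase subunits of the SWI/SNF chromatin remodelling complex, and it was given for 14 days at 100 nM. The labels do not say that the libraries of a group came from separate cultures, so the *p* values measure the spread between these libraries, which may be technical.

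De novo purine synthesis builds the purine ring stepwise on phosphoribosyl pyrophosphate (PRPP) and ends at inosine monophosphate (IMP). IMP is then turned into adenine or guanine nucleotides by separate branches. De novo pyrimidine synthesis builds its ring before the ribose is added, and its DHODH step sits in the inner mitochondrial membrane. Dividing cells, tumour cells among them, draw on both routes for DNA and RNA synthesis, and the SCLC field has studied guanine nucleotide synthesis by the IMPDH enzymes and pyrimidine synthesis by DHODH as targets.

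All 10 genes are protein-coding. In GENCODE release 44 on hg38, *PPAT* lies on the minus strand at chr4:56393362-56435615 and *PAICS* on the plus strand at chr4:56435741-56464578, so their starts face away from each other 126 bases apart. *GART* lies at chr21:33503931-33543491 on the minus strand and *PFAS* at chr17:8247618-8270491 on the plus strand. *ADSL* is at chr22:40346461-40390463 and *ATIC* at chr2:215311956-215349773, both on the plus strand. *IMPDH1* is at chr7:128392277-128409986 and *IMPDH2* at chr3:49024325-49029447, both on the minus strand. *GMPS* is at chr3:155870650-155944020 and *DHODH* at chr16:72008588-72027664, both on the plus strand. *GART* starts beside *SON*, a splicing cofactor gene on the opposite strand, and *PFAS* starts beside *CTC1*, a telomere maintenance gene on the opposite strand.

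The sequence upstream of the start is shown for the members whose RNA moved furthest or whose start is shared. The stretch between *PPAT* and *PAICS* and the stretch between *GART* and *SON* each lie between the RefSeq starts of both neighbours, *GMPS* and *PFAS* moved differently in the 2 lines, and *DHODH* rose in both. Sequences are from the RefSeq promoter table (GRCh38.p14), plus strand, 5′ to 3′, and capitals mark the motif named with each stretch, on either strand. The *PPAT* and *PAICS* stretch is chr4:56435616-56435751, with 3 GGGCGG. The *GART* and *SON* stretch is chr21:33542893-33543037, with 3 CCAAT. The others are the 250 bases before the RefSeq start: *GMPS* at chr3:155870400-155870649 with 4 GGGCGG, *PFAS* at chr17:8249039-8249288 with 1 GGGCGG, and *DHODH* at chr16:72008494-72008743 with 1 CACGTG. RefSeq and GENCODE differ in some starts, and by the GENCODE coordinates above the *GART* and *PFAS* sequences lie inside those genes and part of the *PAICS* and *DHODH* sequences does too.
PPAT and PAICS: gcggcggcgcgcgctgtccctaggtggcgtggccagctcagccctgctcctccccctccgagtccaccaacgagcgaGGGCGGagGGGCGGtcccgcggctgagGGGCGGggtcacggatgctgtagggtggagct
GART and SON: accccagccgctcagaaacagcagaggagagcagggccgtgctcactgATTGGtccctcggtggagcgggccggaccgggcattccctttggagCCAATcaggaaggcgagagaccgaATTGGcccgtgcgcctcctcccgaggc
GMPS: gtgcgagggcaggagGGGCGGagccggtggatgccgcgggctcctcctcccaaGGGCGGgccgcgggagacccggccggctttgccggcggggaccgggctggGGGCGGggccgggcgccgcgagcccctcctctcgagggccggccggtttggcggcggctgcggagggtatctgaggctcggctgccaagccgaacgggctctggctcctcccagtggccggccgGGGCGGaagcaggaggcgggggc
PFAS: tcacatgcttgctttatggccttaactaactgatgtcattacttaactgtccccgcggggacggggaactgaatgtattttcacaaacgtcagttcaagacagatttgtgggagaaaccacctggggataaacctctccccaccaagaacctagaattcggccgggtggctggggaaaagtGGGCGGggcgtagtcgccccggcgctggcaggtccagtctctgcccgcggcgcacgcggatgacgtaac
DHODH: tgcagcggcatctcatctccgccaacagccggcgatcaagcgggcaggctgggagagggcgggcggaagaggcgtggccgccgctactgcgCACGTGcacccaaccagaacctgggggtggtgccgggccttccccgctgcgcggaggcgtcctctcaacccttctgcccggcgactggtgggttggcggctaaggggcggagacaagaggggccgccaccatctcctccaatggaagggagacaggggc

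RefSeq windows from 250 bases before to 50 bases after a start were found for 8 of the 10 genes, and not for *IMPDH2* and *ADSL*. CACGTG, the E-box bound by MYC and other factors, was present in a window of 4 genes, *ATIC*, *DHODH*, *PAICS* and *PPAT*, against 7.26% of all 35116 windows. GGGCGG, the GC box, was in a window of 8 genes against 45.0% of all windows. CCAAT was in a window of 2 genes, *DHODH* and *GART*, against 34.6% of all windows. *PPAT* and *PAICS* share much of a window, and several genes have more than 1 window, so these counts are not independent matches. The 250 bases before the start held 79.6% G or C for *GMPS* and 56.0% for *PFAS*, against a median of 58.0% over all windows.

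Values are in TPM, a unit in which reads are divided by gene length and every library is brought to a sum of 1000000. Read numbers are not part of the tables, so depth is unknown and precision rests on the spread between libraries. Treated and untreated libraries of a line differed in the number of genes that reached 1 TPM, and in H82 also in the mitochondrial share. Between 21227 and 21772 genes reached 1 TPM in untreated H82 and between 15554 and 16633 in treated H82, and mitochondrial genes took 22.1% to 24.1% and 12.3% to 14.9% of the TPM. In H146 the ranges were 17476 to 17965 genes without treatment and 18778 to 19309 with it, and mitochondrial genes took 7.56% to 8.86% and 3.82% to 11.4%. Changes were tested on log2(TPM + 1) with limma, for genes that reached 1 TPM in 3 or more libraries of a line. The *p* values are two-sided, were adjusted over every tested gene by the Benjamini-Hochberg method, and count as called under 0.05. On this scale the median of all genes tested was -0.56 in H82 and 0.25 in H146, and scaling the libraries by the median of ratios, which anchors each library on its middle gene ratio, moved these medians to -0.14 and -0.02.

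Treated H82 libraries were not alike. Replicate 2 carried RNA typical of H146: 114 genes at 20 TPM or more in every untreated H146 library and at no more than 0.1 TPM in every untreated H82 library summed to 428 TPM there. They summed to 82.4 and 36.7 TPM in the other treated H82 libraries and to 10570 to 11582 TPM in untreated H146. The epithelial marker *EPCAM* stood at 32.8 TPM in replicate 2, and at 3.08 and 1.11 TPM in replicates 1 and 3. Replicate 1 was the lowest of the treated H82 libraries for 9 of the 10 enzymes and the highest for *IMPDH2*, and the summed level of 12 proliferation markers was 1868 TPM there, against 3661 and 3463 TPM in replicates 2 and 3. In untreated H82 that sum was 2909 to 2945 TPM. Neuroendocrine markers were present in both lines, with *NEUROD1* at 224 to 234 TPM in untreated H82 and at 0.262 to 0.521 TPM in untreated H146. *SYP*, which encodes a synaptic vesicle protein, was at 193 to 212 TPM in untreated H82 and at 78.2 to 93.3 TPM in untreated H146. *INSM1* went the other way, at 12.5 to 15.8 TPM in untreated H82 and at 1140 to 1405 TPM in untreated H146. The untreated ranges of H82 and H146 overlapped for *CHGA* (113.7 to 158.5 and 100.2 to 134.6 TPM) and *NCAM1* (51.8 to 53.7 and 40.8 to 58.1 TPM). The 5 markers of immune, fibroblast and endothelial cells summed to 1.14 to 1.36 TPM in untreated H82, 0.174 to 16.9 TPM in treated H82, 9.13 to 12.3 TPM in untreated H146 and 11.3 to 15.2 TPM in treated H146. *COL1A1* made up most of the highest H82 sum, at 16.7 TPM in treated replicate 3, and was at 3.41 to 6.07 TPM in H146. *PTPRC* was at 3.29 to 6.75 TPM in H146 and at no more than 0.402 TPM in H82. *LYZ* was at 0.219 to 0.489 TPM in untreated and 1.25 to 2.68 TPM in treated H146, where it passed the filter on low values through the treated libraries and was called higher at 1.23. *CD3E* was at 0 in all 6 H82 libraries and at no more than 0.102 TPM in H146, and *PECAM1* was at no more than 0.525 TPM in any library. The part of these cells in the results was not tested.

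**Figure D1:**
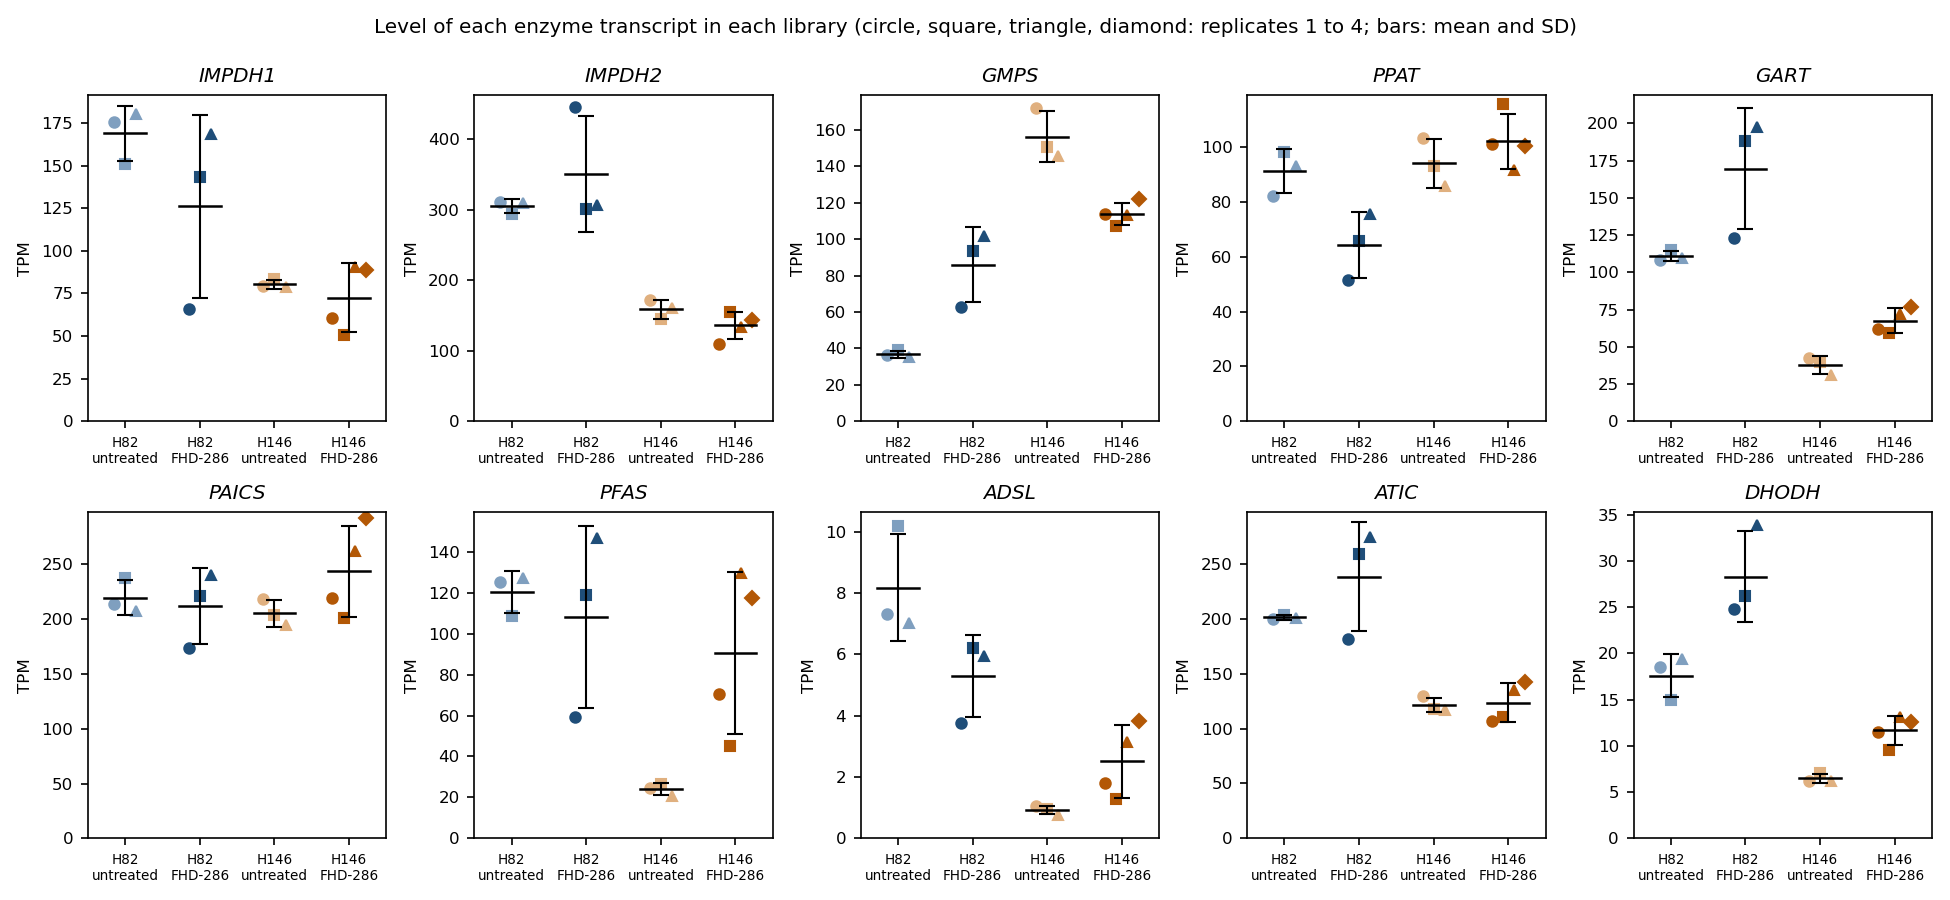
Level of each enzyme transcript in each library. The vertical axes give TPM from 0, symbols mark replicates 1 to 4 of each group, and horizontal bars with whiskers give the mean and SD. *GMPS* separates treated from untreated libraries in both lines in opposite directions, and *PFAS* rises from 20.9 to 26.4 TPM to 45.3 to 129.7 TPM in H146.

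In treated H82, *GMPS*, *DHODH* and *GART* rose and *PPAT* fell. Thus 3 of the 10 enzymes were called higher, against 13.1% of all genes tested, and 1 was called lower, against 45.5% of all genes tested. The treated and untreated ranges did not overlap for 5 of the 10, against 67.8% of all genes. The median log2 fold change of the 10 was 0.06, where that of all genes was -0.56. In bulk RNA, a change in the level per cell and a change in which cells were present cannot be told apart.

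*GMPS* encodes GMP synthase, which makes GMP from xanthosine monophosphate and completes the guanine branch. Its level was 36.2, 38.9 and 35.3 TPM in the untreated H82 libraries and 62.6, 93.4 and 101.7 TPM in the treated ones. Every treated library lay above every untreated one. The log2 fold change was 1.17 ± 0.20 (SE, n = 3 and 3, adjusted *p* = 0.00247 by limma), and the mean rose from 36.8 ± 1.88 to 85.9 ± 20.6 TPM (SD). It was called higher under all 13 alternatives tried, with a log2 fold change of 1.02 to 1.65, including the fit without treated replicate 2.

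*DHODH* encodes dihydroorotate dehydrogenase, which makes orotate in pyrimidine synthesis. It was measured at 18.6, 14.9 and 19.3 TPM without treatment and at 24.8, 26.2 and 33.9 TPM with it. The ranges did not overlap, and the treated mean was 1.61 times the untreated one. The log2 fold change was 0.65 ± 0.18 (SE, n = 3 and 3, adjusted *p* = 0.0190 by limma). The call was kept under 9 of 13 alternatives and was lost when untreated replicate 1, 2 or 3 or treated replicate 3 was left out (limma adjusted *p* = 0.0610, 0.0777, 0.0509 and 0.0614), with log2 fold changes of 0.69, 0.54, 0.72 and 0.52. Scaled by the median of ratios, the value was 1.12.

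*GART* encodes an enzyme that carries out several early steps of ring building, among them a formylation. Its untreated H82 levels were 108.5, 115 and 110 TPM and its treated levels 123, 188 and 198 TPM. All 3 treated libraries were above the untreated ones, replicate 1 by the least. The log2 fold change was 0.58 ± 0.20 (SE, n = 3 and 3, adjusted *p* = 0.0433 by limma). The call held under 4 of 13 alternatives and was lost without untreated replicate 1, 2 or 3, treated replicate 2 or treated replicate 3 (limma adjusted *p* = 0.142, 0.111, 0.137, 0.129 and 0.126), with log2 fold changes of 0.56, 0.60, 0.57, 0.49 and 0.45. It was 1.06 with the median of ratios.

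*PPAT* encodes the amidotransferase of the committed step, in which PRPP receives its amine. It stood at 82.3, 98.2 and 93.1 TPM in untreated H82 and at 51.5, 65.6 and 75.6 TPM in treated H82. Each treated library was below each untreated one. The log2 fold change was -0.51 ± 0.18 (SE, n = 3 and 3, adjusted *p* = 0.0402 by limma), close to the median of all genes in this line. The call held under 5 of 13 alternatives. With the median of ratios the log2 fold change was -0.03 and no longer called. The call was lost without the filter, without trend and with the replicate block (limma adjusted *p* = 0.063, 0.0596 and 0.0536). It was also lost without untreated replicate 1, 2 or 3 or treated replicate 2 (limma adjusted *p* = 0.0887, 0.144, 0.144 and 0.0815), with log2 fold changes of -0.58, -0.46, -0.50 and -0.54.

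The other 6 enzymes were not called in H82. *PAICS* encodes the enzyme that adds carbon dioxide and then aspartate to the growing ring, and its levels were 214, 238 and 208 TPM without treatment and 174, 221 and 241 TPM with it. *ATIC* encodes the enzyme of the last formylation and the closure of the ring to IMP, with 199.8, 204 and 200.4 TPM before and 182, 259 and 275 TPM after treatment. The ranges of both overlapped, with log2 fold changes of -0.06 (95% confidence interval -0.46 to 0.34) and 0.22 (-0.22 to 0.66). Without treated replicate 1, *ATIC* was called higher at 0.40 (limma adjusted *p* = 0.00205).

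*PFAS* encodes formylglycinamidine ribonucleotide synthase. It had 125, 108.6 and 127 TPM in untreated H82 and 59.4, 119 and 147 TPM in treated H82. Its treated libraries ran from far below to above the untreated range, and the log2 fold change was -0.24 (95% confidence interval -1.005 to 0.52), turning to 0.14 without treated replicate 1. *ADSL* encodes adenylosuccinate lyase, which acts both in ring building and in the adenine branch. It was low, with 7.31, 10.2 and 7.02 TPM without treatment and 3.75, 6.21 and 5.94 TPM with it. The treated libraries were the lower ones throughout, but the log2 fold change of -0.55 did not pass the test (95% confidence interval -1.13 to 0.03, limma adjusted *p* = 0.0914).

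*IMPDH1* and *IMPDH2* encode the isoenzymes that turn IMP into xanthosine monophosphate, the entry to the guanine branch. *IMPDH1* was at 176, 151 and 180 TPM in untreated H82 and at 66.1, 144 and 169 TPM in treated H82. *IMPDH2* was at 311, 294 and 310 TPM in untreated H82 and at 445, 301 and 306 TPM in treated H82. Treated replicate 1 had the lowest *IMPDH1* and the highest *IMPDH2* of the line, while the other treated libraries lay at or near the untreated range. The log2 fold changes were -0.52 (95% confidence interval -1.32 to 0.28) and 0.18 (-0.28 to 0.63). The ratio of *IMPDH2* to *IMPDH1* was 1.72 to 1.95 in the untreated libraries, and 6.74 in treated replicate 1 against a lowest value of 1.82 and a median of 2.09 in that group.

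In H146, *PFAS*, *GART* and *DHODH* rose with FHD-286 and *GMPS* fell. *ADSL* was also called higher, but it passed the filter on low values only through the treated libraries and was not called without that filter. Of the 10 enzymes, 4 were called higher with *ADSL* and 3 without it, against 32.5% of all genes tested, and 1 was called lower, against 15.5% of all genes tested, so these counts were near the background. The ranges did not overlap for 5 of the 10, against 52.9% of all genes. The median log2 fold change of the 10 was 0.17, beside 0.25 for all genes.

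*PFAS* had the largest log2 fold change of the 10. It was measured at 24.8, 26.4 and 20.9 TPM in untreated H146 and at 70.7, 45.3, 129.7 and 117 TPM in treated H146. The lowest treated library lay above the highest untreated one, and the treated libraries spread widely. The mean went from 24.0 ± 2.84 to 90.8 ± 39.6 TPM (SD), and the log2 fold change was 1.76 ± 0.34 (SE, n = 3 and 4, adjusted *p* = 0.00345 by limma). It was called under all 14 alternatives, with log2 fold changes of 1.45 to 2.05.

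*GART* stood at 42.3, 40.0 and 30.9 TPM without treatment and at 62.3, 59.4, 71.9 and 77.0 TPM with it. The groups were well apart, and the treated mean was 1.79 times the untreated one. The log2 fold change was 0.83 ± 0.15 (SE, n = 3 and 4, adjusted *p* = 0.00284 by limma). *DHODH* rose from 6.21, 7.08 and 6.19 TPM to 11.5, 9.57, 13.2 and 12.5 TPM. Its log2 fold change was 0.75 ± 0.15 (SE, n = 3 and 4, adjusted *p* = 0.00485 by limma), and both genes were called under all 14 alternatives. The values were 0.52 for *GART* and 0.47 for *DHODH* with the median of ratios.

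*GMPS* was the only enzyme of the 10 called lower in H146 on the TPM scale as deposited. It had 172, 150.5 and 145.8 TPM in the untreated libraries and 114, 107, 113 and 122 TPM in the treated ones. All 4 treated libraries lay below the untreated range. The log2 fold change was -0.45 ± 0.11 (SE, n = 3 and 4, adjusted *p* = 0.00987 by limma). The call held under 13 of 14 alternatives and was lost without untreated replicate 1, at -0.38 (limma adjusted *p* = 0.0570). The value was -0.77 with the median of ratios.

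*ADSL* was near the detection range in H146, with 1.04, 0.958 and 0.774 TPM without treatment and 1.79, 1.27, 3.15 and 3.82 TPM with it. The groups did not overlap, and the log2 fold change was 0.80 ± 0.28 (SE, n = 3 and 4, adjusted *p* = 0.0405 by limma). Only 1 untreated library reached 1 TPM, and without the filter on low values the gene was not called (limma adjusted *p* = 0.0996). The call held under 5 of 14 alternatives and was lost without untreated replicate 1, 2 or 3 or treated replicate 3 or 4 (limma adjusted *p* = 0.0900, 0.0973, 0.128, 0.0909 and 0.0796), with log2 fold changes of 0.85, 0.82, 0.75, 0.70 and 0.63. In GENCODE release 44 a readthrough gene on the same strand covers 30.6% of the canonical *ADSL* transcript, and counting per gene can leave out reads shared with it, so the level of *ADSL* is uncertain.

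The other 5 enzymes were not called in H146. *PPAT* was at 103, 92.9 and 85.8 TPM without treatment and at 101, 116, 91.4 and 100.2 TPM with it. *PAICS* was at 218, 204 and 194 TPM and then at 219, 201, 262 and 292 TPM. *ATIC* was at 129, 118 and 117 TPM and then at 107, 110, 135 and 142 TPM. The ranges of these 3 overlapped, and the log2 fold changes were 0.12 (95% confidence interval -0.16 to 0.40), 0.23 (-0.10 to 0.57) and 0.01 (-0.29 to 0.32).

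*IMPDH1* was at 79.4, 83.4 and 78.6 TPM in untreated H146 and at 60.5, 50.6, 90.4 and 88.7 TPM in treated H146. *IMPDH2* was at 171, 145 and 160.2 TPM and then at 109, 155, 134 and 144 TPM. Treated *IMPDH1* lay on both sides of its narrow untreated range, and *IMPDH2* overlapped. Their log2 fold changes were -0.19 (95% confidence interval -0.67 to 0.29) and -0.23 (-0.56 to 0.09). With the median of ratios, *IMPDH2* was called lower at -0.55 (limma adjusted *p* = 0.0162). For *IMPDH2*, release 44 lists another gene on the same strand over 98.8% of its canonical transcript, so its level is uncertain too. Among the treated H146 libraries, replicates 3 and 4 were both above replicates 1 and 2 for 7 of the 10 enzymes, a split seen in these values and not given by the labels.

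**Figure D2:**
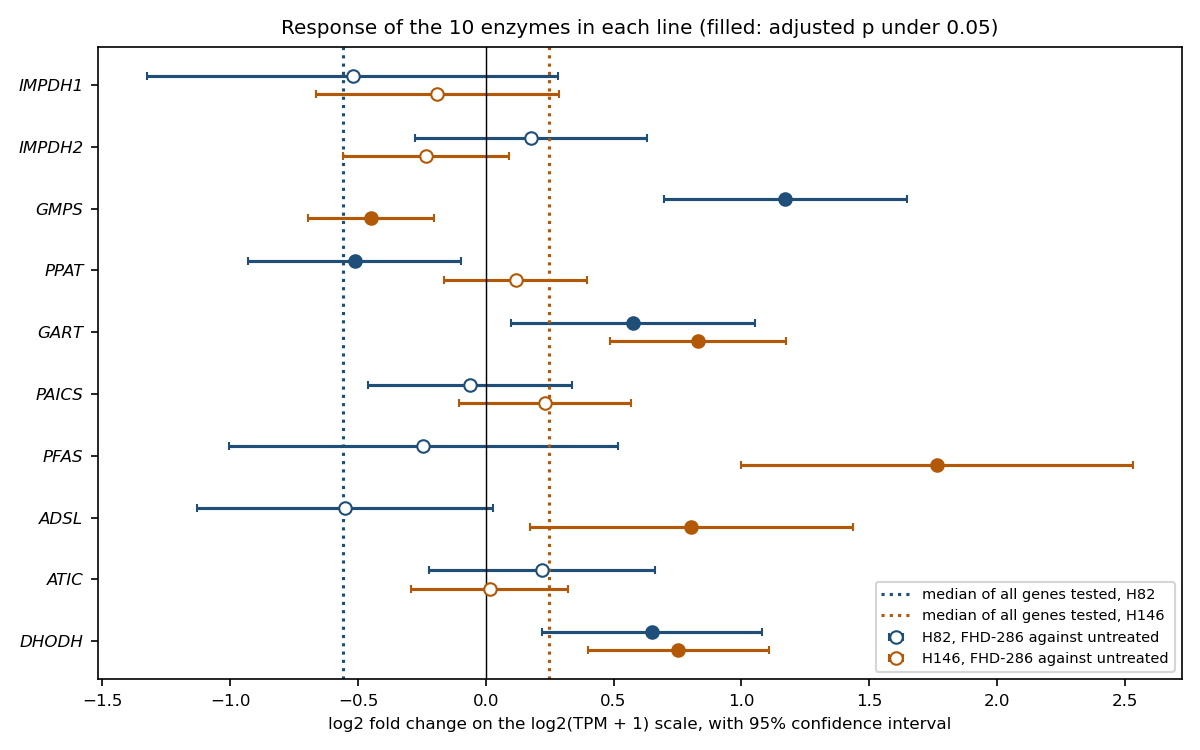
Response of each enzyme in each line. The horizontal axis gives the log2 fold change of treated against untreated libraries on the log2(TPM + 1) scale, with its 95% confidence interval, filled points have an adjusted p under 0.05, and dotted lines give the median of all genes tested (-0.56 in H82 and 0.25 in H146). *GMPS* lies at 1.17 in H82 and -0.45 in H146, and *GART* and *DHODH* lie above 0 in both.

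The responses of the lines were compared directly as the interaction of line and treatment over all 13 libraries, coded as the H146 response minus the H82 response. *GMPS* responded lower in H146 than in H82, and *PFAS*, *ADSL* and *PPAT* responded higher. Thus 1 of the 10 enzymes was called below, against 13.7% of all 23676 genes tested, and 3 were called above, against 46.5% of them. The median difference of the 10 was 0.27, where that of all genes was 0.73.

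The difference for *GMPS* was -1.62 ± 0.22 (SE, n = 6 and 7, adjusted *p* = 6.18e-05 by limma), and the gene moved in opposite directions in the lines, with a call in each. That for *PFAS* was 2.01 ± 0.51 (SE, n = 6 and 7, adjusted *p* = 0.00476 by limma). Both calls were made under all 20 alternatives, with values of -2.42 to -1.48 for *GMPS* and 1.21 to 2.30 for *PFAS*. No other enzyme kept its call throughout.

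For *ADSL* the difference was 1.35 ± 0.39 (SE, n = 6 and 7, adjusted *p* = 0.00918 by limma), and it was not called with the median of ratios (0.74) or quantile normalization (0.31). For *PPAT* it was 0.63 ± 0.21 (SE, n = 6 and 7, adjusted *p* = 0.0196 by limma). With the median of ratios the *PPAT* difference turned to -0.17, and its call was lost without untreated H146 replicate 3 or untreated H82 replicate 2 (limma adjusted *p* = 0.0518 and 0.0541), at 0.57 in both. 

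*GART* and *DHODH* rose in both lines. The difference between their responses was 0.25 for *GART* (95% confidence interval -0.29 to 0.80) and 0.10 for *DHODH* (-0.39 to 0.60), neither called, and these intervals leave room for a difference either way. With the median of ratios both differences were called below 0, at -0.55 and -0.65, and both genes were still called higher in each line. The remaining differences on the TPM scale were 0.33 for *IMPDH1* (-0.57 to 1.24), -0.41 for *IMPDH2* (-0.92 to 0.10), 0.29 for *PAICS* (-0.19 to 0.78) and -0.21 for *ATIC* (-0.69 to 0.28).

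**Figure D3:**
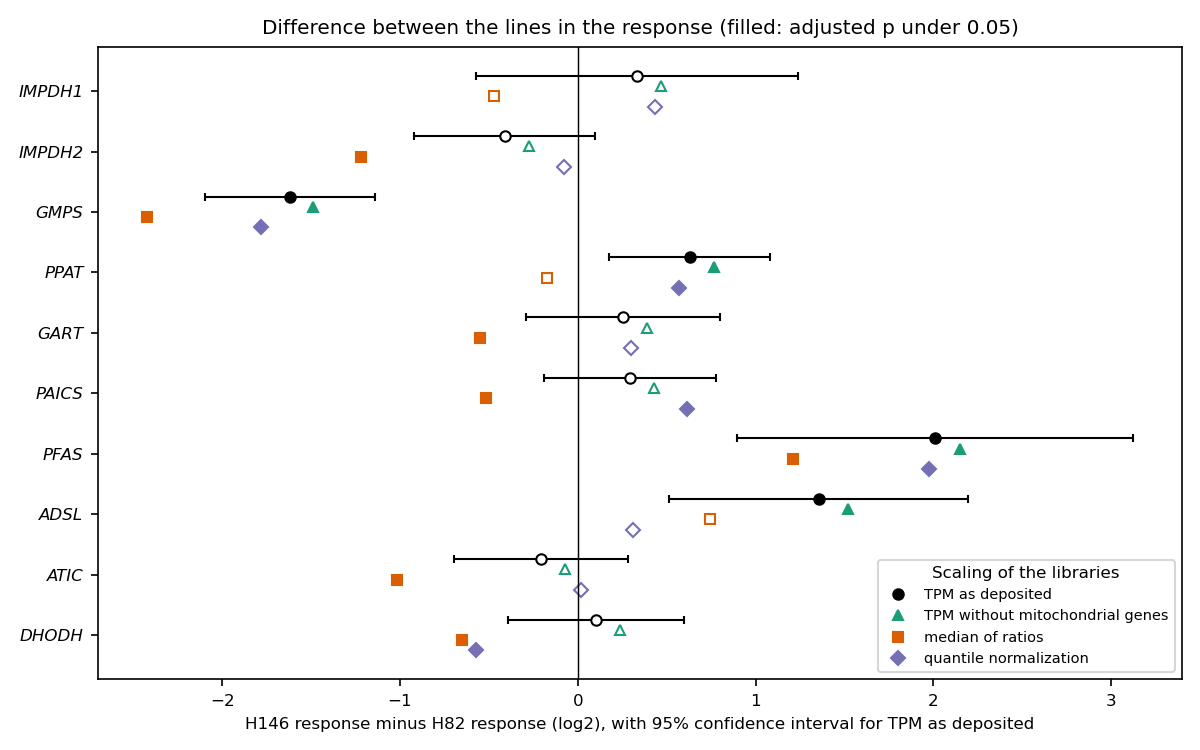
Difference between the lines in the response of each enzyme under 4 scalings of the libraries. The horizontal axis gives the H146 response minus the H82 response in log2, the bars are 95% confidence intervals for TPM as deposited, and filled symbols have an adjusted p under 0.05. *GMPS* stays below 0 and *PFAS* above 0 under each scaling, while *PPAT*, *GART*, *PAICS*, *IMPDH1* and *DHODH* change side with the median of ratios, *DHODH* also changes side with quantile normalization, and *ATIC* changes side with quantile normalization.

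Levels were also set side by side between the lines, with no test, since each line has a table of its own. In untreated cells *GMPS* was lower in H82, at 36.8 ± 1.88 TPM against 156 ± 14.1 TPM in H146 (SD, n = 3 each), or 0.236 of the H146 mean. *PFAS* was higher in H82, at 120.4 ± 10.3 TPM against 24.0 ± 2.84 TPM, or 5.01 times the H146 mean. *ADSL* was 8.83 times higher, *GART* 2.94 times and *DHODH* 2.71 times. The *ADSL* ratio is uncertain, since its untreated H146 mean was 0.93 TPM, near the detection range, and a readthrough gene overlaps it. *IMPDH1*, *IMPDH2* and *ATIC* were 2.10, 1.92 and 1.66 times higher, and only *PPAT* and *PAICS* had overlapping ranges.

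In treated cells the means of *GMPS* and *PFAS* lay closer together. Treated H82 had 0.754 of the *GMPS* level of treated H146, with ranges still apart, and 1.19 times its *PFAS* level, with ranges that overlapped. *ADSL* stood at 2.11 times with overlap. *GART* and *DHODH*, which rose in both lines, kept ratios of 2.51 and 2.42. *PPAT*, overlapping before treatment, was lower in treated H82 than in treated H146, at 0.629 of its mean.

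**Figure D4:**
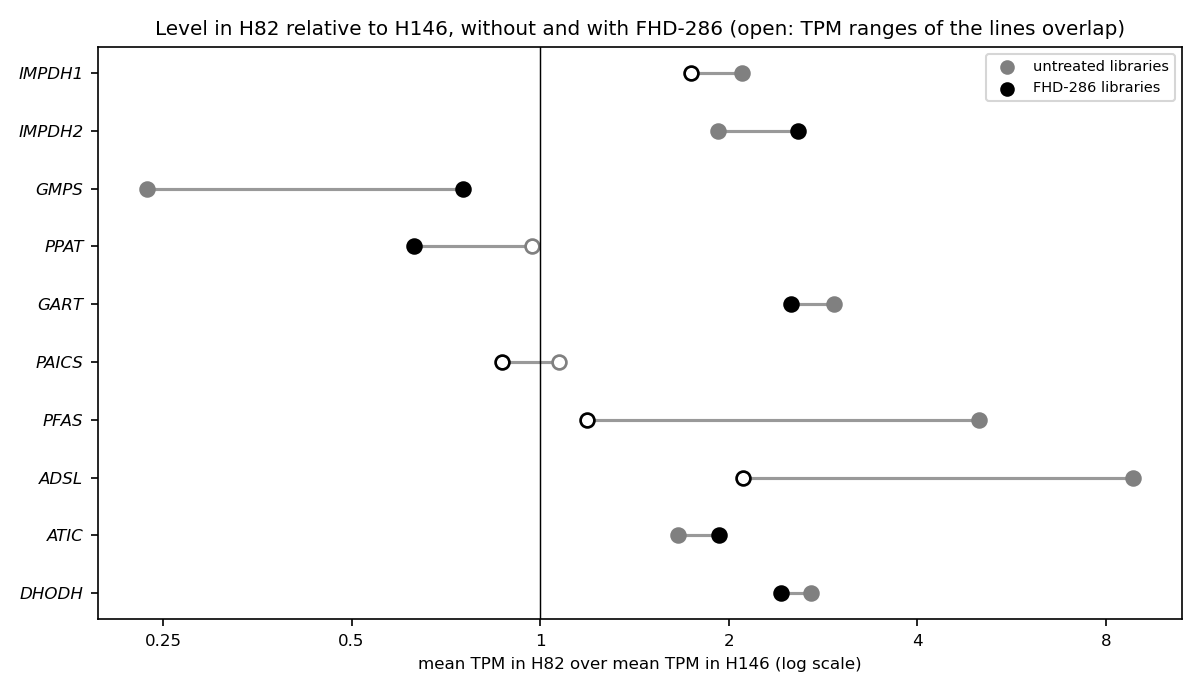
Mean TPM in H82 divided by mean TPM in H146 for each enzyme, on a log axis. Grey points are untreated and black points treated libraries, and open points mark TPM ranges that overlap between the lines. *GMPS* moves from 0.236 to 0.754 and *PFAS* from 5.01 to 1.19.

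Within a line, TPM allows levels of different genes to be compared per length. *IMPDH2* was the highest of the 10 in both H82 groups, at 305 ± 9.80 TPM untreated (SD, n = 3), followed by *PAICS*, *ATIC* and *IMPDH1*, whose untreated ranges did not touch those of their neighbours. *PFAS* and *GART*, next in order, overlapped. *PAICS* led in both H146 groups, at 205 ± 12.2 TPM untreated (SD, n = 3), followed by *IMPDH2* and *GMPS*, which overlapped. *DHODH* and then *ADSL* were the lowest of the 10 in all 4 groups, apart from their neighbours in each. The levels of *ADSL* and *IMPDH2* are uncertain because other genes on the same strand overlap them, so their ranks are uncertain too. In the treated groups most of the middle ranks overlapped, from *ATIC* down to *PPAT* in H82 and from *IMPDH2* down to *GART* in H146.

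*PPAT* and *PAICS*, which share the upstream stretch shown above, did not keep a fixed ratio. *PAICS* was 2.23 to 2.6 times *PPAT* in untreated H82 and 3.18 to 3.38 times in treated H82, with no overlap. In H146 the ratio was 2.11 to 2.27 without treatment and 1.74 to 2.91 with it, which overlapped. *SON*, across the shared stretch from *GART*, fell in H82 with a log2 fold change of -1.52 ± 0.33 (SE, n = 3 and 3, adjusted *p* = 0.00647 by limma) and rose in H146 by 0.99 ± 0.19 (SE, n = 3 and 4, adjusted *p* = 0.00324), whereas *GART* rose in both. *CTC1*, beside *PFAS*, rose in H146 by 1.14 ± 0.13 (SE, n = 3 and 4, adjusted *p* = 0.000312 by limma) whereas its value of -0.38 in H82 was not called (limma adjusted *p* = 0.0785), although it was called without treated replicate 1, at -0.49.

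The enzymes as a group were summarised by the median over the 10 of the log2 difference from the untreated mean of the line. This median was -0.24, -0.0004 and 0.21 in the treated H82 replicates 1, 2 and 3, and 0.10, 0.11, 0.26 and 0.37 in the 4 treated H146 replicates. Of the 10 genes that make up this median, *PAICS* followed it most closely, with a root mean square difference of 0.0768 over the 13 libraries. *PFAS* (0.936) and *GMPS* (0.68) followed it least. Of 7859 other genes with a mean of at least 10 TPM in each line, *EXD2* (0.0576), *SRP54* (0.0705) and *REEP5* (0.0777) came nearest to the median of the enzymes, against a median difference of 0.483. *EXD2*, *SRP54* and *REEP5* were not called in either line. *SRP54* encodes a subunit of the signal recognition particle and *REEP5* a membrane-shaping protein of the endoplasmic reticulum.

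The rest of nucleotide metabolism was followed in fixed lists. Over all genes tested, 13.1% were called higher and 45.5% lower in H82, and 32.5% higher and 15.5% lower in H146. In the supply of PRPP and the adenine branch, 1 of 6 genes rose in H82 and none of 6 was called in H146. *PRPS2*, which encodes a PRPP synthetase, was at 40.5, 38.2 and 35.1 TPM in untreated H82 and at 112, 173 and 179 TPM in treated H82, a log2 fold change of 1.97 ± 0.21 (SE, n = 3 and 3, adjusted *p* = 0.000393 by limma). In H146 it was at 149 to 167 TPM and then at 127 to 148.6 TPM, and the log2 fold change of -0.18 was not called, although it was with the median of ratios, at -0.50. The H146 response was lower than the H82 response by 2.15 on the log2 scale, a difference of -2.15 ± 0.23 (SE, n = 6 and 7, adjusted *p* = 9.89e-06 by limma).

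Of 8 other genes of pyrimidine synthesis, 1 rose in H82 and 2 rose in H146. *CAD* encodes the enzyme of the opening steps before DHODH. Its levels were 143, 134 and 143 TPM in untreated H82 and 66.1, 98.3 and 122 TPM in treated H82, where the log2 fold change of -0.59 was not called (limma adjusted *p* = 0.0595), although it was called without treated replicate 1 (-0.35) or 3 (-0.79). In H146 it rose from 43.6 to 56.0 TPM to 81.5 to 91.0 TPM, by 0.80 ± 0.12 (SE, n = 3 and 4, adjusted *p* = 0.00105 by limma). *TYMS*, the thymidylate synthase gene, rose in H82 by 0.98 on the log2 scale (limma adjusted *p* = 0.0299), a call lost when any of the untreated replicates or treated replicate 2 or 3 was left out (0.71 to 1.07).

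Of 11 salvage genes, which recycle bases and nucleosides, 4 rose and none fell in H82, whereas 2 rose and 1 fell in H146. The shares of all genes called higher and lower were 13.1% and 45.5% in H82 and 32.5% and 15.5% in H146. *APRT*, which recycles adenine, rose in H82 by 1.05 on the log2 scale. *TK1*, the thymidine kinase of dividing cells, rose in H82 by 0.70 (limma adjusted *p* = 0.0261), a call lost when any of the untreated replicates or treated replicate 2 or 3 was left out (0.55 to 0.75), and fell in H146 with -0.86 (limma adjusted *p* = 0.00199). *TK2*, its mitochondrial counterpart, rose in H146 by 0.96. Among 12 genes of interconversion and reduction, 3 rose and 1 fell in H82 and 6 rose and 1 fell in H146. *NME1*, a nucleoside diphosphate kinase gene, rose by 1.95 on the log2 scale in H82, a value that is uncertain because a readthrough gene joins it to *NME2*, and *AK4*, a mitochondrial adenylate kinase gene, rose by 1.64 in H146. *RRM2B*, a ribonucleotide reductase subunit gene, fell in H82 with -0.50, a call lost without untreated replicate 1, 2 or 3 or treated replicate 3 (-0.53 to -0.45), and its value was -0.03 with the median of ratios and -0.02 with quantile normalization, neither called. *DUT*, the dUTPase gene, rose in H82 by 0.71 and fell in H146 with -0.68.

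Of 14 breakdown genes, 9 passed the filter on low values in H82 and 8 in H146, with 2 lower and 1 higher in H82 and 3 lower and 1 higher in H146. *AMPD3*, an AMP deaminase gene, was lower in H82 at -1.88. *CDA*, the cytidine deaminase gene, was lower in H146 at -1.41, with 3.11 to 3.79 TPM untreated and 0.334 to 1.22 TPM treated. There it passed the filter on low values only through the untreated libraries, so this call supports nothing by itself. In H82 *CDA* was at 0.213 to 0.808 TPM without treatment and 1.19 to 2.98 TPM with it. In H146 *DPYD*, which starts pyrimidine breakdown, was at 0.514 to 0.812 TPM and then at 2.62 to 4.001 TPM. Both passed the filter on low values only through the treated libraries, so their calls as higher, at 0.90 and 1.40, support nothing by themselves. Without that filter *CDA* in H82 was not called (limma adjusted *p* = 0.0822), and it was also not called without untreated replicate 1, 2 or 3 (0.77 to 1.06). Of 5 genes of the folate route that supplies the formyl groups used by GART and ATIC, 1 was lower in H82, *MTHFD1L* at -0.42, a call lost without untreated replicate 1, 2 or 3 or treated replicate 2 (-0.46 to -0.41) and turned to 0.06 with the median of ratios, and 2 were lower in H146, with *SHMT2* at -1.49. These list counts are descriptions beside the background shares given above for each line.

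**Figure D5:**
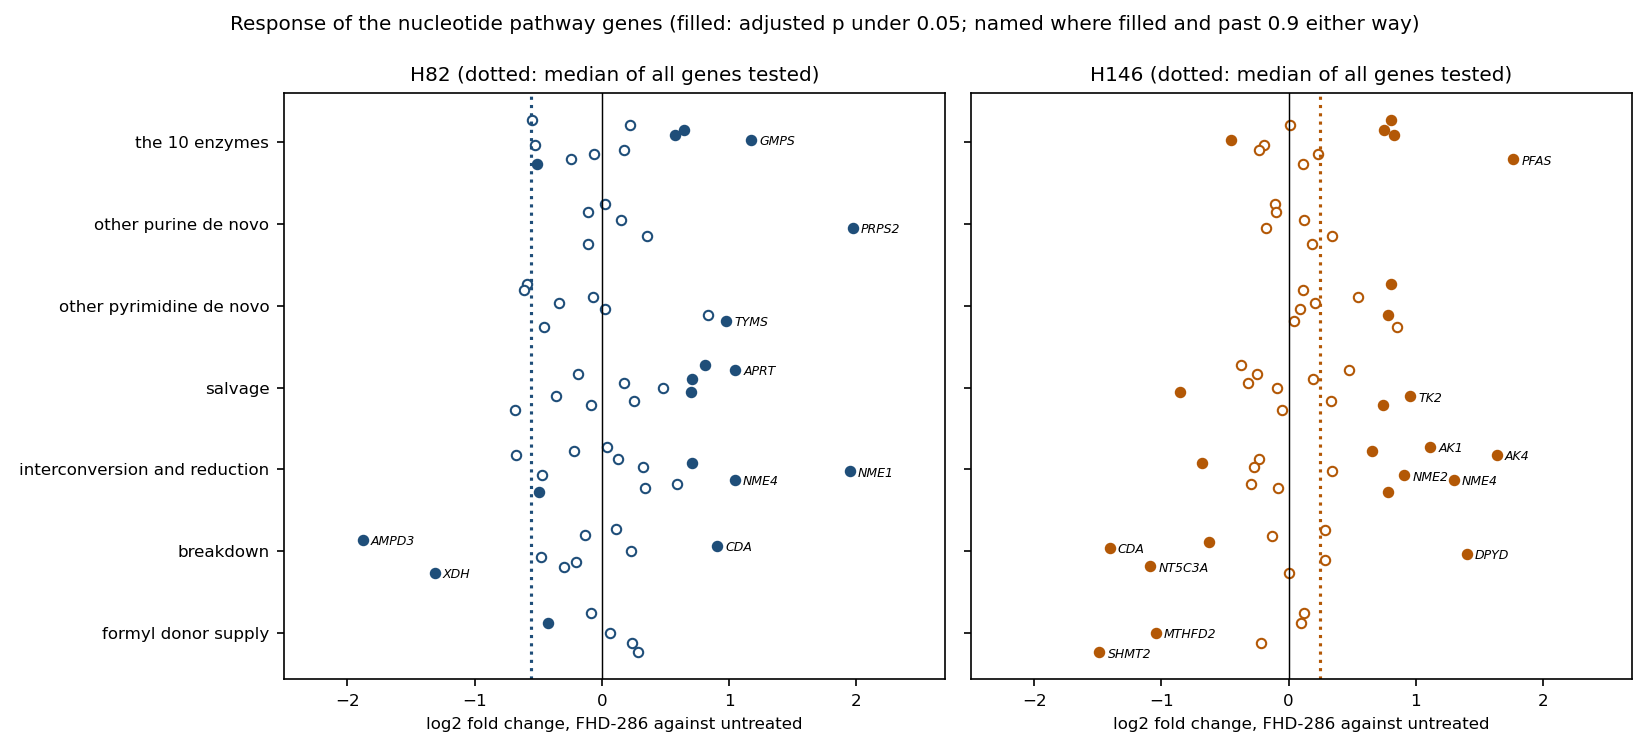
Log2 fold change of each tested gene of the nucleotide pathway lists in H82 (left) and H146 (right). Each point is a gene, filled where the adjusted p is under 0.05, and the dotted line is the median of all genes tested. *PRPS2* at 1.97 and *NME1* at 1.95 are the farthest to the right in H82, and *PFAS* at 1.76 in H146.

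Markers of division and of the neuroendocrine state were counted in the same way. For comparison, 45.5% of all genes tested were called lower and 13.1% higher in H82, and 15.5% and 32.5% in H146. Of 12 proliferation markers, 1 was lower in H82, *MKI67* at -2.23, a call lost without untreated replicate 2 (-2.26). In H146 1 was lower, *CDK1* at -0.57, and 1 higher, *MCM5* at 0.52, a call lost without untreated replicate 3 (0.48) and with the median of ratios (0.21). Their summed level was 1868 to 3661 TPM in treated H82 against 2909 to 2945 TPM untreated, and 3649 to 4290 TPM in treated H146 against 4008 to 4239 TPM untreated. Of 5 neuroendocrine markers, 3 were lower and 1 higher in H82, with *CHGA* at -2.36 and *INSM1* at 2.19, and 1 of 4 tested was lower in H146, *INSM1* at -0.50. The *INSM1* level was 296 TPM in treated H82 replicate 2 against 32.1 and 33.9 TPM in replicates 1 and 3, its H82 call was lost without any of the untreated replicates (2.10 to 2.26), and its H146 call was lost without untreated replicate 2 or treated replicate 3 or 4 (-0.47 to -0.40) or with quantile normalization (-0.32). The H82 call of *INSM1* was also lost with 0.1 added before the log, without the filter, without mitochondrial genes and without trend (limma adjusted *p* = 0.0533, 0.0948, 0.0566 and 0.0550). Its H146 call was also lost without the filter and with the replicate block (limma adjusted *p* = 0.0595 and 0.0689). Without treated replicate 2, the H82 value of *INSM1* was 1.15. The part of these markers in the levels of the enzymes was not tested.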

How the data were processed

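RNA was sequenced from 13 libraries of H82 and H146. The authors aligned reads to hg38 and obtained counts with STAR on GENCODE release 28, and deposited 1 table of TPM values per line. The submitters' processing notes also name Trim Galore 0.4.4, with no role given. How gene length was taken is not given in the sources used here. DESeq2, which the authors ran on counts, was not run, since the tables hold no counts.

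Members were matched by symbol. Each line was fitted with limma 3.58.1 in R 4.3.3 (lmFit, eBayes with trend) on log2(TPM + 1), for genes reaching 1 TPM in 3 or more libraries. Groups were taken from the labels. Both lines entered 1 fit for the interaction, and means and SD are of TPM. Tables and plots were made in Python 3.11.15 (pandas 2.3.3, matplotlib 3.10.9). On simulated libraries with 200 genes changed, a log2 change of 1 was called for 13.0% of genes in the H82 design and 40.0% in the H146 design. One of 2 was called for 65.0% and 77.0%. In the data many more genes were called, 11584 of 19770 in H82 and 9389 of 19585 in H146. The adjusted threshold was then looser than in the simulation, so these shares do not give the recovery in the data.

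Genes named were the 10 members, the largest called rise and fall of each list in each line, the MYC family, genes starting within 1000 bases on the opposite strand, and the 3 genes nearest in pattern. Members and lists were chosen with earlier results of these data known. Alternatives were 0.1 added before the log, no filter, median of ratios, quantile normalization, TPM without mitochondrial genes, a replicate block, no trend and each library left out. Where a fit leaves 2 libraries in a group, fewer genes pass the filter.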

Additional observations from a re-analysis of the deposited data

Results flagged for a closer look

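For 24 of the genes named, the response to FHD-286 differed between the lines by the interaction test in limma (all 13 libraries, threshold 0.05 after adjustment over 23676 genes, H146 response minus H82 response in log2). Among the enzymes the differences were -1.62 for *GMPS*, 2.01 for *PFAS*, 1.35 for *ADSL* and 0.63 for *PPAT*. In nucleotide synthesis and salvage they were -2.15 for *PRPS2*, 1.39 for *CAD*, -0.94 for *TYMS*, -1.56 for *TK1* and 1.31 for *TK2*. In interconversion they were -1.39 for *DUT*, 2.31 for *AK4*, -1.61 for *NME1* and 1.28 for *RRM2B*. In breakdown they were 1.26 for *AMPD3*, -2.31 for *CDA* and 1.17 for *DPYD*, and in the folate route 0.52 for *MTHFD1L* and -1.77 for *SHMT2*. *CDA* passed the filter on low values only through treated H82 and untreated H146, where it was higher, so its difference supports nothing by itself. The neighbours of members differed by 2.50 for *SON* and 1.52 for *CTC1*. The others were 0.89 for *MYCL*, 2.78 for *MKI67*, 2.24 for *CHGA* and -2.69 for *INSM1*. The calls for *ADSL*, *AMPD3*, *DPYD* and *MYCL* were lost by median of ratios and by quantile normalization. *TK2* lost its call by quantile normalization. *PPAT* and *MTHFD1L* lost theirs by median of ratios, where both values turned direction. *PPAT* also lost its call without untreated H146 replicate 3 or untreated H82 replicate 2. The call for *TYMS* was lost without untreated H146 replicate 1, untreated H82 replicate 2 or treated H82 replicate 2 or 3 (-0.89 to -0.67). With the replicate block, *MTHFD1L* and *TYMS* were not called. Such differences were common over all genes, with 13.7% called below and 46.5% above. Among the 4 treated H146 libraries, none stood far from the others by Dixon's test for any of the 38 named genes.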

How the results depend on the processing

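Of the enzymes' values in other settings, 169 kept their direction and side of the threshold and 18 turned direction, whether called or not. Among values that kept their direction, 14 lost a call and 9 gained one. With 1 library left out the numbers were 230, 8, 21 and 1. The cause was not tested. Leaving 1 library out also lowered the number of genes tested in each line. It fell furthest without an untreated H82 library, to between 16364 and 16488 from 19770.

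In H82, 1 enzyme was called lower, and this became 0 without the filter, 0 by median of ratios, 3 after quantile normalization, 2 without mitochondrial genes, 0 with the replicate block and 0 without trend. The 3 called higher became 6 with the median of ratios. In H146 the 1 called lower became 2 with the median of ratios. Between the lines, the 1 below became 6 by median of ratios and 2 after quantile normalization, and the 3 above became 1 with the median of ratios.

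Over all genes, H82 calls were 5547 lower and 5067 higher with quantile normalization and 4793 higher with the median of ratios. H146 calls were 4917 lower and 4165 higher with the median of ratios. Between the lines, 6192 were below by median of ratios, and 6092 below and 6241 above after quantile normalization. The share of called genes that were lower went from 77.7% to 57.6% (median of ratios) and 52.3% (quantile) in H82, and from 32.3% to 54.1% and 46.9% in H146.

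With the median of ratios, values turned to 0.43 for *PAICS*, 0.24 for *PFAS*, 0.093 for *CTC1* and 0.063 for *MTHFD1L* in H82, to -0.20 for *PPAT*, -0.0875 for *PAICS* and -0.30 for *ATIC* in H146, and between the lines to -0.47 for *IMPDH1*, -0.17 for *PPAT*, -0.55 for *GART*, -0.52 for *PAICS*, -0.65 for *DHODH* and -0.28 for *MTHFD1L*. With quantile normalization they turned to -0.20 for *IMPDH2*, 0.24 for *ADSL* and -0.0786 for *ATIC* in H82, to -0.060 for *ATIC* and -0.0184 for *MYCL* in H146, and between the lines to 0.0187 for *ATIC*, -0.57 for *DHODH* and -0.0208 for *DPYD*. Without mitochondrial genes *ATIC* in H146 was -0.0035.

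With 1 library left out, H82 enzymes called lower were 0 to 1 and higher 1 to 4, and H146 enzymes called lower 0 to 1. All genes called were 4291 to 9957 lower and 1676 to 3503 higher in H82, and 1812 to 3729 lower in H146. Values that turned ranged from -0.0563 to 0.0803 for *ATIC* in H146, and in H82 from -0.0068 to 0.28 for *IMPDH2*, -0.16 to 0.0739 for *PAICS*, -0.51 to 0.14 for *PFAS* and -0.70 to 1.70 for *MYCN*. The *IMPDH1* difference ranged from -0.0752 to 0.59.

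Untreated and treated libraries share replicate numbers only. Deviations of same-numbered libraries correlated at -0.11 to 0.03, so the numbers were not taken to pair them. With the replicate block, H82 calls were 8625 lower and 2333 higher, H146 calls 2377 lower and 4749 higher, and *ATIC* in H146 was -0.0563. *PPAT* and *GART* in H82 and *ADSL* in H146 lost their calls under that block (limma adjusted *p* = 0.0536, 0.0579 and 0.120).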

Other observations

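The MYC family, transcription factors known to act on nucleotide synthesis genes, was measured in full. *MYC* was at 1457, 1272 and 1467 TPM in untreated H82 and at 1491, 2320 and 2662 TPM in treated H82. The ranges did not overlap, but the log2 fold change of 0.59 was not called (limma adjusted *p* = 0.106), and without treated replicate 1 it was called, at 0.83. It was also called with the median of ratios, at 1.08. In H146 *MYC* was at 446 to 487 TPM without treatment and at 329 to 505 TPM with it, a difference of -0.18 on the log2 scale that was called only with the median of ratios, at -0.50. *MYCL* was lower in treated H82, at 20.1 to 34.6 TPM against 35.9 to 44.4 TPM, by -0.64 on the log2 scale (limma adjusted *p* = 0.0399). That call was lost without untreated replicate 1, 2 or 3 or treated replicate 2 or 3, at -0.72 to -0.49, and also with the median of ratios (-0.16) and quantile normalization (-0.34). *MYCN* was lower in treated H146, at 0.808 to 1.27 TPM against 3.09 to 4.83 TPM. There *MYCN* passed the filter on low values only through the untreated libraries, so its call as lower supports nothing by itself. In treated H82 it stood at 61.8 TPM in replicate 2 and at 2.0 and 1.3 TPM in replicates 1 and 3, and the log2 fold change of 0.83 became -0.70 without replicate 2.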
